A study of Homo sapiens with 20 samples.

Results

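The heme biosynthesis enzymes described here are 8 genes of the pathway, taken by name: ALAS1, ALAS2, ALAD, UROS, UROD, CPOX, PPOX and FECH. All 8 were found among the 60616 genes of the RNA-seq table and the 20401 genes of the Ribo-seq table, and all 8 passed the filter on low counts in both. They were measured in K562, a human leukaemia line with erythroid potential, in cells labelled NAT10 knock out (called knockout) and in the parental cells labelled wild type. NAT10 is the acetyltransferase that writes N4-acetylcytidine (ac4C) in RNA, and the knockout was made by deleting an exon of NAT10 with CRISPR-Cas9. No source used here gives the number of clones. Both genotypes were grown in RPMI-1640 with serum, and the labels name no inducer of differentiation. RNA-seq and Ribo-seq, which sequences the mRNA fragments protected by ribosomes (footprints), had 2 knockout and 2 wild type libraries each. In acetylated RNA immunoprecipitation sequencing (acRIP-seq), RNA fragments were pulled down with an ac4C antibody or with normal rabbit IgG, and 1 merged peak list per genotype and antibody was read.

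Heme is made in steps that start in the mitochondrion, pass through the cytosol and end in the mitochondrion again. ALAS1, which most cells use, and ALAS2, the erythroid form, both condense glycine and succinyl-CoA, the step that sets the rate. ALAD joins the product into a pyrrole, UROS and UROD close and trim the ring in the cytosol, CPOX and PPOX oxidise it in the mitochondrion, and FECH inserts iron. Red cell precursors induce the pathway to supply heme to hemoglobin, and iron controls translation of ALAS2 through a hairpin in its mRNA leader. Erythroid control of these genes is known to run through GATA1, which binds GATA motifs, and KLF1, which binds CACCC motifs.

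Promoter windows are shown for FECH, the member whose RNA passed the test, and for ALAS2, the erythroid form of the first enzyme. That of CPOX, the member with the lowest fitted RNA change, is shown as well, though this change did not pass the test. Each window holds the 250 bases before the annotated start, 5′ to 3′, from RefSeq on GRCh38.p14. Capitals mark GATAA or CACCC on either strand (TTATC and GGGTG are their reverse complements).
FECH, chr18:57586703-57586952, minus strand: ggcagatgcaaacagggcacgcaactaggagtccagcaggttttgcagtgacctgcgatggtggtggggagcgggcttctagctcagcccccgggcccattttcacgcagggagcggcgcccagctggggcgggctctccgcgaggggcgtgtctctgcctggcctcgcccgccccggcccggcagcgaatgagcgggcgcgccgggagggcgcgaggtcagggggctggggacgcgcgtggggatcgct
ALAS2, chrX:55030978-55031227, minus strand: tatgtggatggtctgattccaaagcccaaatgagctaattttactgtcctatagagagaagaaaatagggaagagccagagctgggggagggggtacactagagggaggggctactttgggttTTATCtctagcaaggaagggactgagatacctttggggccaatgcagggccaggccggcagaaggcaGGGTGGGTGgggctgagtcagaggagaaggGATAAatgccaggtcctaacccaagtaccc
CPOX, chr3:98593612-98593861, minus strand: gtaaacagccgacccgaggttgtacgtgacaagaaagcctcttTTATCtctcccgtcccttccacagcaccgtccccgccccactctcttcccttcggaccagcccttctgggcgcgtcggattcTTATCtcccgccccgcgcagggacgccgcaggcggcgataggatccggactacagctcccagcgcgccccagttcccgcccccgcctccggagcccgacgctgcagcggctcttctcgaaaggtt
The ALAS2 window held 2 GATAA matches and 2 CACCC matches, which overlap by 1 base on the opposite strand, and the CPOX window held 2 GATAA and no CACCC. No match to either motif was found in the FECH window, which held 2 matches to the GC box letters GGGCGG on either strand, against 3 in CPOX and 0 in ALAS2. Among all 35116 promoter windows of this length, 20.4% held GATAA, 54.7% held CACCC and 42.6% held GGGCGG on either strand. TGAGTCA, letters that NF-E2 can bind, had 1 match in ALAS2 and 0 in FECH and CPOX, and was in 4.20% of all windows on either strand. The windows of 7 of the 8 members were in the table, and UROS had none. The iron-responsive element of ALAS2 begins at base 12 counted from the start, from the same RefSeq table, and capitals mark the hairpin's loop. CAGTG was in the first 50 bases after the start, on the sense strand, of 6.48% of all windows.
ALAS2 element, chrX:55030941-55030966, minus strand: gttcgtcctCAGTGCagggcaacagg
These letters are a description of the windows, and binding or iron regulation was not measured.

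Library totals were 10388717 to 18778485 counts in RNA-seq, with both knockout libraries above both wild type libraries, and 621287 to 1220308 in Ribo-seq. The pair of knockout libraries in RNA-seq differed by 2.99% over counting noise, while the wild type pair differed by 12.5 times counting noise. The knockout pair was therefore counted as 1 sample, and its spread was taken to be that of wild type. NAT10 itself had 49.9 and 49.3 CPM (counts scaled to library size) in knockout RNA-seq libraries, against 139 and 144 CPM in wild type (log2 difference -1.51, SE 0.085, edgeR quasi-likelihood adjusted p = 0.000102). Counts cover the whole gene, so reads outside the deleted exon are included. Of 7 erythroid and K562 markers 4 rose in RNA by edgeR, TAL1, HBG1 and HBG2 among them, and GATA1 fell. Over all tested genes 5.17% rose and 8.79% fell. Summed RNA levels of the 7 markers were 1206 and 1186 CPM in knockout, against 1167 and 1149 CPM in wild type. In footprints 1 of the 7 rose and 0 fell, against 1.47% upward and 3.87% downward of all tested genes. The markers' summed footprint levels were 1622 and 1676 CPM in knockout, against 1763 and 1896 CPM in wild type. Marker sums of lymphocytes, fibroblasts and hepatocytes were 0.107 to 4.74 CPM in knockout and 0.314 to 7.41 CPM in wild type RNA-seq libraries, with MS4A1 and LUM at 0 in all of them. The part of these markers, and of the higher RNA-seq totals in knockout, in the enzymes' values was not tested. In bulk RNA, fewer cells that express a gene and less of its RNA per cell cannot be told apart. Whether replicates came from separate cultures is not stated in the labels, and p-values measure the spread between libraries, which may be technical.

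Of the 8 enzymes, ferrochelatase FECH alone rose in knockout RNA and none fell at an adjusted p under 0.05, against 14.0% of the 16277 tested genes called in either direction, 5.17% upward and 8.79% downward. The members had a median log2 fold change of 0.16, against -0.00 over all tested genes. RNA of 5 enzymes (ALAS2, UROS, UROD, PPOX and FECH) had a higher fitted value in knockout and that of 3 (ALAS1, ALAD and CPOX) a lower one. In 6 members the libraries of the genotypes did not overlap, 4 with knockout above and 2 with knockout below, against 67.3% of all tested genes without overlap (33.1% with knockout above and 34.1% below). The unadjusted p was under 0.05 in 5 members (ALAS2, UROD, CPOX, PPOX and FECH), against 28.9% of all tested genes. With the 2 knockout libraries kept as separate samples, edgeR called 5 members, FECH (adjusted p = 0.000376), UROD (0.0018), PPOX (0.0127) and ALAS2 (0.0174) upward and CPOX (0.0285) downward, on a spread taken partly from a pair that differed little more than by counting. With no filter on low counts it called UROD (0.00115), PPOX (0.0112) and FECH.

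The first enzyme was measured as a common and an erythroid form. ALAS1 (ENSG00000023330.15, chromosome 3) had 31.4 and 29.0 CPM in knockout, against 34.1 and 29.9 CPM in wild type, with overlapping libraries (log2 fold change -0.08, SE 0.12, edgeR adjusted p = 0.712). ALAS2 (ENSG00000158578.21, chromosome X) had 12.9 and 12.8 CPM in knockout, from 234 and 241 counts, against 9.05 and 9.51 CPM in wild type, from 94 and 121 counts. Both knockout libraries lay above both wild type libraries, but the difference missed the threshold (0.47, SE 0.17, edgeR adjusted p = 0.113). The count of ALAS2 per count of ALAS1 was 0.412 and 0.443 in knockout, against 0.266 and 0.318 in wild type, so the erythroid form had fewer counts than the common form in every library, and the ratio was higher in both knockout libraries than in either wild type library. The annotated span of ALAS2 overlaps those of APEX2 and PAGE2B, and whether their exons overlap was not checked. Reads in a shared stretch cannot be told apart, as no source used here gives the strand setting.

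The cytosolic enzymes contain the most abundant member, UROD, and the member with the fitted change nearest 0, UROS. ALAD (ENSG00000148218.16, chromosome 9), which makes the pyrrole porphobilinogen, had 21.6 and 23.0 CPM in knockout, against 24.4 and 23.5 CPM in wild type (log2 fold change -0.10, SE 0.12, edgeR adjusted p = 0.640). UROS (ENSG00000188690.15, chromosome 10), which closes the ring in the form used for heme, had 40.6 and 42.0 CPM in knockout, against 40.7 and 40.5 CPM in wild type (0.03, SE 0.10, edgeR adjusted p = 0.895). ALAD knockout libraries lay just below wild type, and UROS libraries overlapped. The annotated span of UROS overlaps that of the microRNA gene MIR4484. UROD (ENSG00000126088.14, chromosome 1), which removes carboxyl groups from the ring, had 457 CPM in both knockout libraries, against 387 and 361 CPM in wild type. The knockout libraries stood above wild type by more than the gap within either genotype, and the fit gave 0.29 (SE 0.086) with an edgeR adjusted p of 0.0617.

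The last 3 enzymes act in mitochondria, and their fitted changes had both signs. CPOX (ENSG00000080819.9, chromosome 3), which makes protoporphyrinogen, had 30.1 and 29.3 CPM in knockout, against 42.2 and 33.2 CPM in wild type (log2 fold change -0.33, SE 0.13, edgeR adjusted p = 0.147). The wild type libraries differed from each other by more than the nearer of them differed from knockout, and the fitted value was -0.20 when wild type replicate 1 was left out and -0.47 when replicate 2 was. PPOX (ENSG00000143224.18, chromosome 1), which oxidises that product to protoporphyrin, had 43.2 and 45.6 CPM in knockout, against 38.4 and 32.6 CPM in wild type (0.33, SE 0.11, edgeR adjusted p = 0.0923). The annotated span of PPOX overlaps that of B4GALT3. Whether their exons overlap was not checked, and reads in a shared stretch cannot be told apart without strand. FECH (ENSG00000066926.12, chromosome 18), which inserts ferrous iron into protoporphyrin, had 109 and 114 CPM in knockout libraries, from 1981 and 2143 counts, against 86.4 and 77.8 CPM in wild type, from 898 and 990 counts. Its groups did not overlap, and its RNA rose 1.37-fold in knockout (0.45, SE 0.074, edgeR adjusted p = 0.00692). FECH also passed with DESeq2 (adjusted p = 0.0396) and by edgeR without either knockout library (0.00664 and 0.0108).

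**Figure D1:**
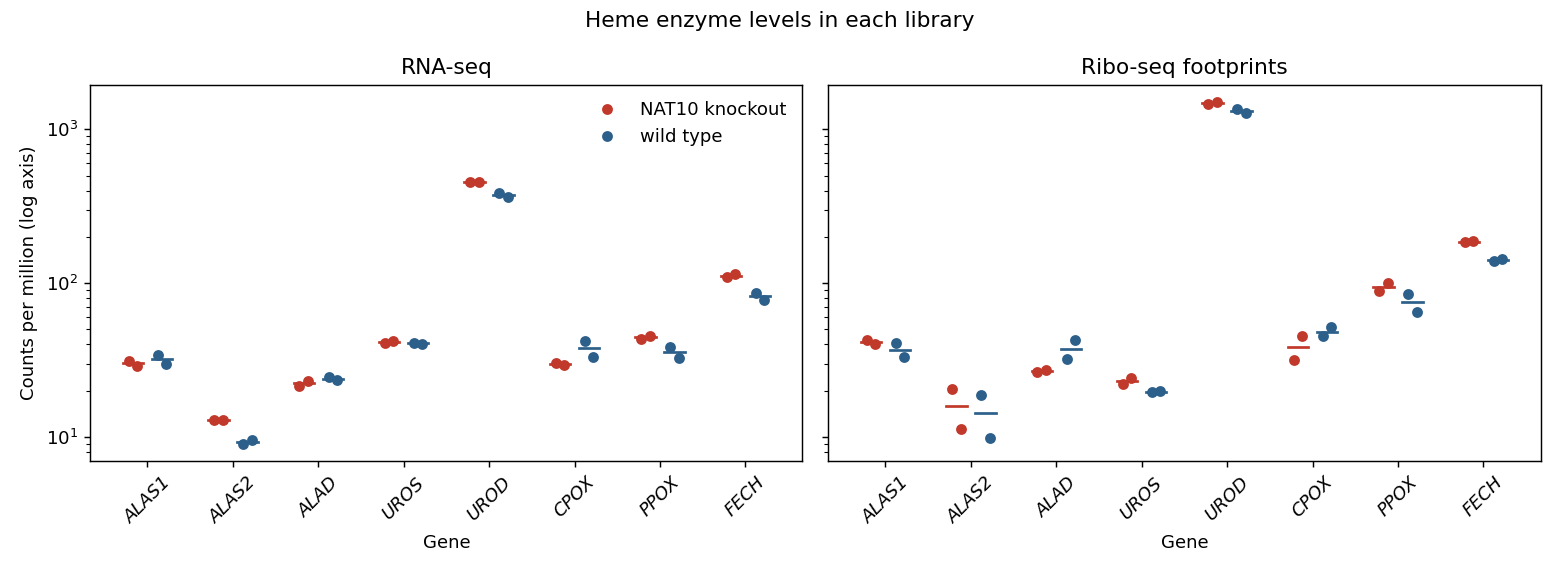
Level of each heme enzyme in CPM (log axis) in the RNA-seq libraries (left) and in the Ribo-seq libraries (right), with a point for each library, a bar for the mean of 2 libraries, knockout in red and wild type in blue. UROD stood highest in both assays, FECH was at 109 and 114 CPM in knockout RNA against 86.4 and 77.8 CPM in wild type, and ALAS2 was lowest.

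Per kilobase of the longest protein-coding transcript listed for each gene, UROD RNA was highest at 214 CPM per kilobase in both knockout libraries, against 181 and 169 in wild type. ALAS2 RNA was lowest at 6.67 and 6.62 CPM per kilobase in knockout, against 4.66 and 4.90 in wild type. After UROD, PPOX came next in knockout at 24.9 and 26.3 CPM per kilobase and FECH after it at 14.2 and 14.8, followed closely by UROS at 12.7 and 13.2, ALAS1 at 12.9 and 11.9, CPOX at 11.1 and 10.8 and ALAD at 6.89 and 7.34. In wild type the same scale gave PPOX 22.2 and 18.8, CPOX 15.6 and 12.3, ALAS1 14.0 and 12.3, UROS 12.8 and 12.7, FECH 11.2 and 10.1 and ALAD 7.81 and 7.51. UROS and ALAS1 overlapped within knockout, and CPOX, ALAS1 and UROS overlapped within wild type, so their order is not set by these libraries. Counted reads of UROD made up 61.3% and 60.7% of the 8 enzymes' RNA counts in knockout, against 58.4% and 59.4% in wild type. Dividing instead by the median listed transcript length left UROD first and ALAS2 last and put UROS (30.9) above FECH (21.8) and ALAD (11.6) above CPOX (11.0) in mean knockout CPM per kilobase.

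No enzyme passed the test in footprints, where 475 of 8887 genes (5.34%) did by edgeR, 131 upward (1.47%) and 344 downward (3.87%). The unadjusted p was under 0.05 in 1 member, FECH, against 20.9% of all genes. FECH had 185 and 187 CPM in knockout footprints, from 217 and 116 counts, against 138 and 144 CPM in wild type, from 169 and 131 counts. The groups did not overlap, as in RNA, and the fitted log2 difference for FECH was 0.36 (SE 0.16) with an edgeR adjusted p of 0.213. Members had a median of 0.15, against 0.00 over all tested genes, and in 6 of them the genotypes did not overlap, 4 with knockout above and 2 below, against 51.8% of all tested genes (27.6% above and 24.2% below).

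UROD was the enzyme with most footprints, at 1452 and 1507 CPM in knockout, against 1356 and 1272 CPM in wild type (log2 fold change 0.14, SE 0.12, edgeR adjusted p = 0.539). PPOX had 89.5 and 99.8 CPM in knockout, against 85.2 and 64.7 CPM in wild type, again without overlap (0.28, SE 0.21, edgeR adjusted p = 0.475). CPOX had 31.5 and 45.07 CPM in knockout, against 45.07 and 51.6 CPM in wild type, so the groups all but touched (-0.41, SE 0.26, edgeR adjusted p = 0.386). ALAD footprints were the members' lowest in log2 fold change, at 26.4 and 27.4 CPM in knockout, against 32.0 and 42.8 CPM in wild type, and its libraries did not overlap (-0.49, SE 0.28, edgeR adjusted p = 0.345).

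The remaining enzymes rested on few footprints. ALAS1 had 50 and 25 counts in knockout, against 50 and 30 in wild type. This corresponds to 42.6 and 40.2 CPM in knockout, against 41.0 and 32.9 CPM in wild type (0.13, SE 0.25, edgeR adjusted p = 0.820). UROS had 22.2 and 24.1 CPM in knockout, against 19.7 and 19.8 CPM in wild type, from 15 to 26 counts a library (0.19, SE 0.33, edgeR adjusted p = 0.796). ALAS2 had 24 and 7 counts in knockout, against 23 and 9 in wild type, which is 20.5 and 11.3 CPM in knockout, against 18.8 and 9.88 CPM in wild type. Within each genotype the ALAS2 footprint level differed more than it did between genotypes (0.15, SE 0.44, edgeR adjusted p = 0.879). The separation of the ALAS2 to ALAS1 ratio seen in RNA was not seen in footprints, with 0.48 and 0.28 in knockout, against 0.46 and 0.30 in wild type.

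Translational efficiency, the change in footprints relative to the change in RNA, passed the test in none of the 8 enzymes. Across all 8821 genes edgeR called 0 (0%), 836 (9.48%) had an unadjusted p under 0.05, and DESeq2 called 1. None of the enzymes had an unadjusted p under 0.05, and their median log2 change was -0.09, against -0.00 over all genes. FECH, whose RNA rose, had a change in efficiency of -0.09 (SE 0.17, edgeR adjusted p = 0.904), and PPOX had -0.07 (SE 0.22), CPOX -0.10 (SE 0.29) and UROD -0.16 (SE 0.16). The lowest values were -0.39 for ALAD (SE 0.29, edgeR adjusted p = 0.700) and -0.31 for ALAS2 (SE 0.46), and the highest were 0.20 for ALAS1 (SE 0.25) and 0.16 for UROS (SE 0.30). The SE of ALAS2 efficiency was about as large as its RNA change of 0.47, so a change of that size was not detectable at this depth.

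**Figure D2:**
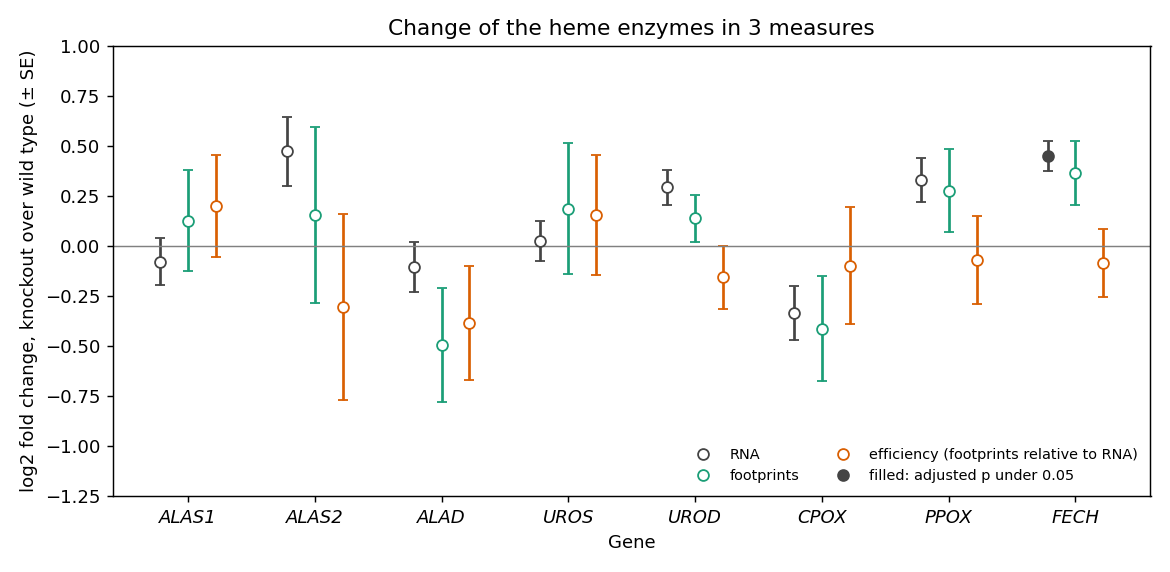
Log2 fold change of each heme enzyme, knockout over wild type, in RNA, in footprints and in translational efficiency, with bars of 1 SE from the edgeR fits and a filled point where the adjusted p was under 0.05. FECH RNA, at 0.45, was the value with a filled point, and ALAS2 had the widest bars in footprints (SE 0.44) and efficiency (SE 0.46).

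Genes near the members on their chromosomes gave a local background. Among 50 tested protein-coding genes around FECH, 25 on each side, 3 rose and 5 fell in RNA by edgeR. Their median log2 fold change was 0.02, against 0.45 for FECH. The same median was -0.10 around ALAS2, -0.09 around PPOX, -0.01 around UROD and -0.00 around CPOX. PPOX, at 0.33, lay in a neighbourhood of 50 such genes, of which 2 rose and 12 fell. Over all tested genes 5.17% rose and 8.79% fell. Over the 8 RNA-seq and Ribo-seq libraries, the pattern most like that of FECH was in EBNA1BP2, DNAH14 and TTPAL, at a Euclidean distance of 0.0999, 0.102 and 0.121 in centred log2 CPM, where the median gene was at 0.770. For ALAS2 the nearest were TMSB10, PTS and API5, at 0.166, 0.203 and 0.252, with a median of 1.06. ALAS2 footprints had 7 to 24 counts a library and differed more within than between genotypes. Its distances include that spread, so they do not single out a likeness in genotype difference.

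Genes that supply, move or break down heme and its iron were read beside the enzymes from a list of 27. In RNA 25 could be tested, and 4 rose and 2 fell, against 5.17% upward and 8.79% downward of all tested genes. Their median log2 fold change was 0.10, against -0.00 over all tested genes. The mitochondrial iron importer SLC25A37 (mitoferrin-1) had 252 and 250.5 CPM in knockout, against 199 and 182 CPM in wild type (0.40, SE 0.077, edgeR adjusted p = 0.0131). ABCB10, an inner mitochondrial membrane transporter known to bind mitoferrin-1, had 132 and 131 CPM in knockout, against 113 and 99.1 CPM in wild type (0.32, SE 0.077, edgeR adjusted p = 0.0321). ISCU, the scaffold on which iron-sulfur clusters such as that of FECH are built, had 76.9 and 71.8 CPM in knockout, against 52.3 and 53.5 CPM in wild type (0.49, SE 0.086, edgeR adjusted p = 0.00899). In these 3 genes both knockout libraries stood above both wild type libraries.

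The biliverdin reductases, which act after heme is opened, went opposite ways in RNA. BLVRA had 49.5 and 45.5 CPM in knockout, against 71.6 and 66.5 CPM in wild type (-0.54, SE 0.083, edgeR adjusted p = 0.00568), and BLVRB had 299 and 296 CPM in knockout, against 252 and 219 CPM in wild type (0.34, SE 0.089, edgeR adjusted p = 0.0410). In footprints 24 could be tested, and 1 rose (SLC25A37, 0.76, SE 0.20, edgeR adjusted p = 0.0498) and 2 fell, against 1.47% upward and 3.87% downward of all tested genes. Their median was 0.03, against 0.00 over all tested genes. BLVRA footprints (-0.66, SE 0.18) had an edgeR adjusted p of 0.0483. PGRMC1, a heme-binding membrane protein that associates with FECH, fell to 28.1 and 35.4 CPM in knockout footprints, against 72.9 and 74.6 CPM in wild type (-1.28, SE 0.24, edgeR adjusted p = 0.010). PGRMC1 RNA gave -0.38 (SE 0.12, edgeR adjusted p = 0.0751) and its efficiency -0.92 (SE 0.25, edgeR adjusted p = 0.380). With DESeq2 the RNA calls of ISCU (adjusted p = 0.0612), ABCB10 (0.213) and BLVRB (0.0545) and the footprint calls of BLVRA (0.208), PGRMC1 (0.0863) and SLC25A37 (0.397) missed the threshold. The BLVRA and SLC25A37 footprint calls were also lost by edgeR without knockout replicate 1 (0.205 and 0.127), wild type replicate 1 (0.0612 and 0.170) or wild type replicate 2 (0.264 and 0.170).

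In acRIP-seq, peaks were listed on transcripts of 6 of the 8 enzymes with the ac4C antibody and 5 with IgG in knockout, and on 7 with each in wild type. Over protein-coding genes tested in RNA, the share with a peak was 78.4% for the antibody and 75.9% for IgG in knockout, and 63.6% and 64.5% in wild type. ALAS2 and PPOX had peaks in the wild type lists but in neither knockout list, and ALAD had them in the knockout lists but in neither wild type list, in each case with both the antibody and IgG. ALAS1 had no peak with IgG in knockout, and UROS, UROD, CPOX and FECH had peaks in all 4 lists. A missing peak is not a measured 0, since the depth of these libraries and the authors' threshold are not stated in the sources used here.

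Most antibody intervals on these enzymes overlapped an IgG interval. On the members, 43 of 51 knockout antibody intervals (84.3%) and 62 of 64 wild type antibody intervals (96.9%) shared at least 1 base with an IgG interval of the same genotype. Over all transcripts, intervals without such a partner made up 20.4% of the antibody list and 12.2% of the IgG list in knockout, and 6.66% and 6.46% in wild type. Without UROD, the members' antibody intervals that overlapped IgG were 57.9% in knockout (11 of 19) and 94.7% in wild type (36 of 38). The same shares over the whole antibody lists were 79.6% in knockout and 93.3% in wild type. Intervals were shorter in knockout, with a median of 380 nucleotides on the members for the antibody and 309 for IgG, against 753.5 and 767 in wild type. The complete lists had medians of 306 and 296 nucleotides in knockout, against 632 and 623 in wild type, so the median was also shorter in knockout over the whole lists, with the antibody and with IgG. It cannot be told apart from a difference between the 2 experiments, as each genotype had its own input and merged lists without replicates.

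Fold over input, as the authors' peak caller listed it, gave close values for the antibody and IgG in most members. The highest fold on UROD was 9.70 with the antibody and 9.96 with IgG in knockout, against 46.8 and 45.3 in wild type. FECH reached 7.72 and 7.26 in knockout, against 4.79 and 4.68 in wild type, and UROS 11.1 and 9.82 in knockout, against 3.03 and 2.67 in wild type. The UROS peaks were on UROS-206 and the retained-intron transcript UROS-219 in knockout, and on UROS-203 and UROS-204 in wild type. No UROS interval was shared between genotypes, so the UROS folds do not compare the same stretch. The highest FECH antibody fold lay on FECH-201 at 3833 to 4484 in knockout, where wild type had no interval. In wild type it lay on FECH-209 at 28 to 645, so the FECH folds do not compare the same stretch either. CPOX had 6.78 with the antibody and 4.41 with IgG in knockout, and 10.5 and 11.0 in wild type. Among members with peaks in 1 genotype, ALAD reached 6.46 and 7.97 in knockout, ALAS2 6.03 and 6.83 in wild type, and PPOX 3.74 and 4.55 in wild type. ALAS1 was low, at 2.50 with the antibody in knockout, against 2.94 and 3.10 in wild type. Thus the highest antibody fold on any transcript was larger in wild type for UROD, CPOX and ALAS1 and in knockout for UROS and FECH. The UROS and FECH values came from different stretches in the genotypes. IgG had the same direction in the 4 of these 5 members with an IgG peak in both genotypes.

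**Figure D3:**
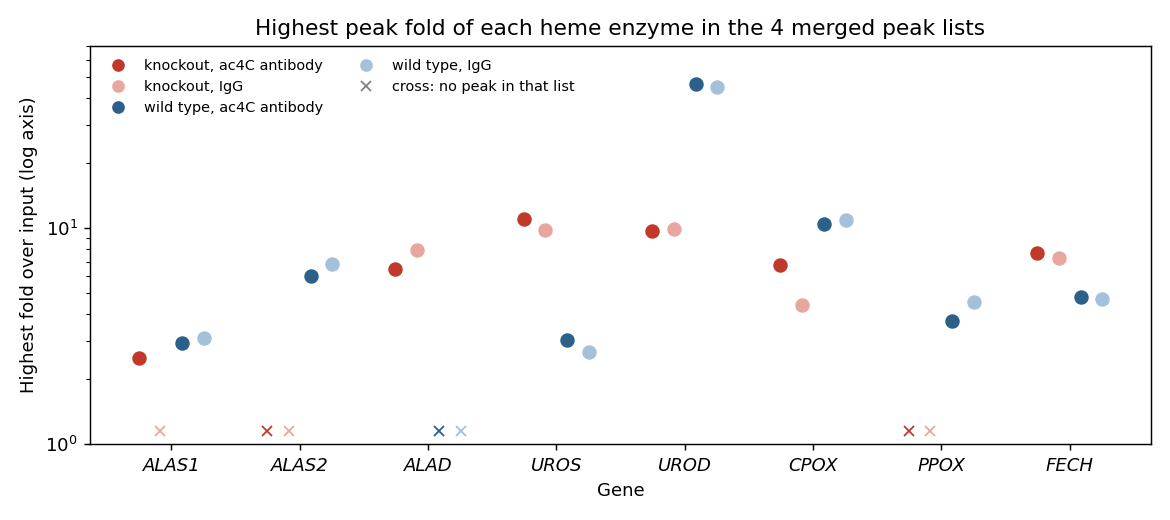
Highest fold over input on any transcript of each heme enzyme in the 4 merged peak lists (log axis), with 1 point per list and a cross where the list has no peak on that gene. The antibody and IgG points of a genotype lie close together for UROD, at 46.8 and 45.3 in wild type, and the crosses stand for the antibody and IgG alike in ALAS2, ALAD and PPOX, and for IgG in ALAS1.

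The 8 knockout antibody intervals without an IgG partner were among the weakest on the members, with folds of 2.19 to 3.55 (median 2.82), against 2.19 to 11.1 (median 6.46) for the 43 shared ones. They lay on ALAS1, ALAD, UROS, CPOX (3 intervals) and FECH (2 intervals). The strongest was at nucleotides 43 to 214 of FECH-201 (fold 3.55), at the start of that transcript, inside the wild type intervals of both the antibody (24 to 3620) and IgG (30 to 3622). The 2 wild type antibody intervals without a partner were on the retained-intron transcripts PPOX-210 and PPOX-218, with folds of 1.58 and 2.53. These 10 intervals are singled out by the absence of an IgG interval, and that absence was not tested.

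Along FECH-201 (7689 nucleotides) the antibody intervals of the genotypes lay mostly in different places. In knockout they covered 3833 to 4484 and 4708 to 5306 besides the short one at the start, and IgG covered 3811 to 4119, 4286 to 4450 and 4744 to 5272. In wild type a single interval ran from 24 to 3620 with the antibody and from 30 to 3622 with IgG. On CPOX-204 (2709 nucleotides) the wild type antibody interval ran from 332 to 2638, while the 4 knockout intervals at 371 to 535, 766 to 978, 1284 to 1663 and 2199 to 2383 all lay within it. On UROD-201 (1193 nucleotides) all 4 lists held 1 interval over nearly the whole transcript, from 16 to 1169 with the antibody in knockout and from 9 to 1188 in wild type. UROD, with 26 transcripts in each list, supplied 32 of the 51 knockout antibody intervals and 26 of the 64 wild type ones, and these transcripts share sequence, so their intervals are not separate observations.

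Sharing between genotypes rested on UROD. Of the members' antibody intervals, 76.5% in knockout and 48.4% in wild type shared a base with an interval of the other genotype, and without UROD the shares were 42.1% (8 of 19) and 13.2% (5 of 38). Of those 38, 14 were on PPOX and 6 on ALAS2, which had no knockout interval to share. Transcripts of the same gene share sequence here too. With IgG they were 75.5% in knockout and 42.2% in wild type, and 15.4% (2 of 13) and 2.63% (1 of 38) without UROD. Over the whole lists 52.2% of knockout and 32.3% of wild type antibody intervals, and 51.7% and 37.4% of IgG intervals, had no partner in the other genotype.

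**Figure D4:**
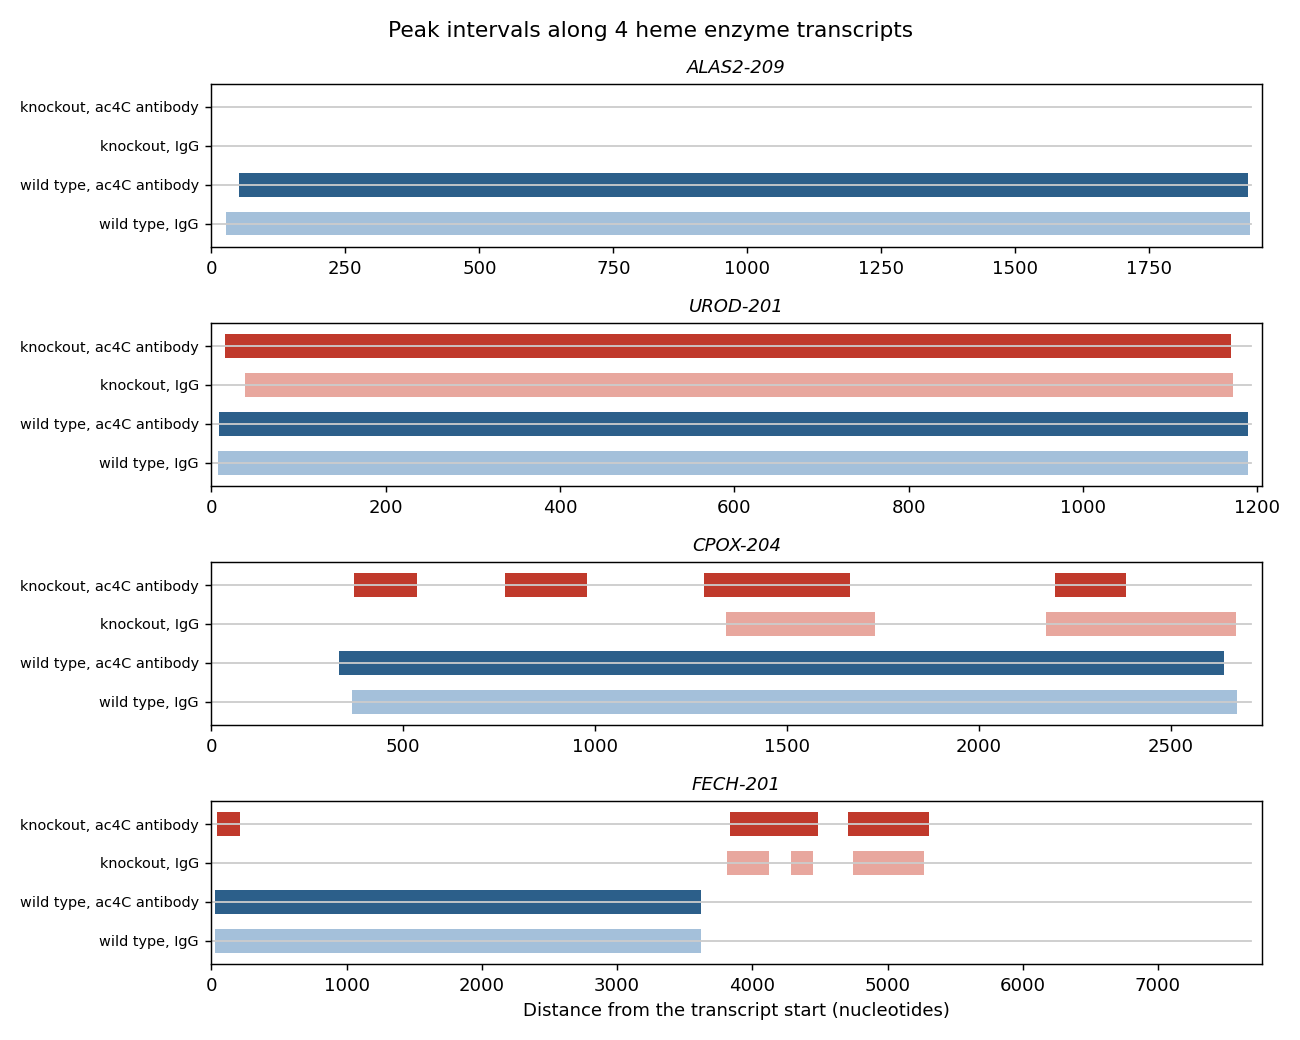
Peak intervals along ALAS2-209, UROD-201, CPOX-204 and FECH-201, with distance from the transcript start in nucleotides on the x axis and 1 row for each merged list, knockout above wild type. The antibody and IgG rows cover nearly the same stretches in wild type and on UROD-201 in knockout, 2 knockout antibody intervals on CPOX-204 and 1 on FECH-201 have no IgG interval, ALAS2-209 has no knockout interval, and FECH-201 has most of its knockout intervals past nucleotide 3811 and its wild type intervals before 3622.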

How the data were processed

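The members and the lists read beside them were chosen with earlier results of these data known. The deposited gene counts of both RNA-seq and Ribo-seq are whole numbers from alignments with duplicates removed, per the file headers. STAR, featureCounts, SAMtools, cutadapt, Trimmomatic, DESeq2, Bowtie2, MACS2, bedtools and ChIPseeker are listed in the submitters' processing notes with the build GRCh38.p13, and no roles or versions are given. Removing duplicates can lower the counts of abundant genes such as UROD.

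The acRIP-seq peak lists are on transcript coordinates, and each peak's fold over input and −log10 q are the authors' deposited values. Positions are counted from 1 at the transcript start. An interval is a unique start and end on a transcript, which may hold several summits, and 1 shared base counted as overlap. Replicates were merged by the authors, so peaks were not tested.

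Each whole table was fitted with edgeR 4.0.16 (R 4.3.3) after TMM scaling and filterByExpr. A gene was called where its quasi-likelihood F test had a Benjamini-Hochberg adjusted p under 0.05. RNA used the summed knockout sample against 2 wild type libraries (1 residual degree of freedom), footprints used 2 against 2 (2 degrees of freedom), and efficiency used the assay by genotype interaction over both kinds of library (3 degrees of freedom). A chi-square over genes with at least 20 summed counts compared the libraries of each pair. Same-numbered libraries deviated together by a correlation of -0.014 in RNA and 0.23 in footprints. Replicate numbers were not used as pairs in the main fits. The main footprint and efficiency fits therefore leave out any effect that same-numbered Ribo-seq libraries share, and fits with a replicate block are given below. The fits were tested on simulated data. DESeq2 1.42.0 was an alternative. The files carry no length column, so levels per kilobase used transcript lengths in the peak lists. Sequences are RefSeq windows on GRCh38.p14, and coordinates of the authors' build were not mixed with them. Named genes are the 8 members, NAT10, listed partners called in any comparison (at most 8), the 3 genes nearest in pattern to ALAS2 and to FECH, and the listed markers, of which 1 partner and 1 marker are not reported here by name.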

Additional observations from a re-analysis of the deposited data

How the results depend on the processing

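Genes called by edgeR in RNA numbered 2271, and 3513 with no filter on low counts, 1039 with DESeq2 (1019 of them shared), 5476 with the knockout libraries kept apart and 4986 with a replicate block added to that. Leaving out 1 library gave 2077 to 2118, or 6761 and 7003 with the knockout libraries kept apart, alternatives chosen after seeing the data. Members called in RNA numbered 1, and 3 with no filter, 5 with the knockout libraries kept apart, 5 with the replicate block (knockout libraries kept apart), 1 when either knockout library was left out, and 5 when either wild type library was left out with the knockout libraries kept apart. Genes called in footprints numbered 475, and 889 with no filter, 181 with DESeq2, 1594 with the replicate block and 264 to 715 when 1 library was left out. Those called in efficiency numbered 0, and 73 with no filter, 1 with DESeq2, 5 with the knockout libraries kept apart, 261 with the replicate block and 0 to 6 when 1 library was left out. No member was called in footprints or efficiency under any of these, and FECH footprints came closest, with an edgeR adjusted p of 0.0526 under the replicate block. At a fold of at least 4, wild type members with an antibody peak fell to 4, and knockout antibody intervals without an IgG partner numbered 4. That limit also removed IgG intervals. None of these 4 was among the 8 unpartnered intervals described above, whose folds reached at most 3.55. With a reciprocal overlap of 50%, intervals without a partner numbered 14 in knockout and 7 in wild type. The cause of these shifts was not tested.

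Signs changed without a call when 1 library was left out. UROS RNA ranged from -0.0090 (without wild type replicate 1) to 0.053, and was -0.013 with the knockout libraries also kept apart. ALAS2 footprints ranged from -0.41 (without knockout replicate 1) to 0.73, with -0.20 without wild type replicate 2, and ALAS1 footprints from -0.012 (without wild type replicate 2) to 0.30. In efficiency CPOX ranged from -0.31 to 0.22 (without knockout Ribo-seq replicate 1), PPOX from -0.24 to 0.16 (without wild type Ribo-seq replicate 1) and ALAS2 from -0.90 to 0.29 (without wild type Ribo-seq replicate 1). RLE scaling changed no member's direction or call. ALAS2 footprints, with 7 to 24 counts a library, were the most limited by depth.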
